A study of Mus musculus with 23 samples.

Results

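hAT-Charlie elements are a family of DNA transposons, and they were followed here in RNA from the spinal cord of PS19 mice and their littermates. The family was taken as the rows of the deposited table whose class was DNA and whose family was exactly hAT-Charlie. This gave 73 of 1135 repeat subfamilies, of which 39 have names beginning with Charlie, 25 with MER, 2 with URR1 and 7 other names. A subfamily is a set of genomic copies that descend from the same element and are counted together.

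hAT transposons move by cutting themselves out of DNA and inserting elsewhere, with a transposase that recognises short inverted repeats at their ends. The Charlie names include elements that once encoded a transposase, whereas most MER names (medium reiterated repeats) are short elements without one, which depended on the transposase of others. The copies in mammalian genomes are ancient fossils, and the family is not known to move in the mouse today. URR1 and RMER30 are rodent elements, while many of the MER and Charlie subfamilies are shared among placental mammals. Several host genes descend from hAT transposases, among them human GTF2IRD2, which carries a sequence related to the Charlie8 transposase. MER20 copies are known in human endometrial cells for binding transcription factors.

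The study sequenced poly(A)-selected, strand-specific RNA of whole spinal cord in 4 groups. At 9 months there were 7 samples from PS19 mice and 6 from control mice. At 4 months there were 5 samples from PS19 mice and 5 from control mice. PS19 mice are heterozygous for a human tau transgene with a disease mutation under the mouse prion promoter, a model of tauopathy. The controls were wild-type littermates. The table holds repeats, so the tau transgene and markers of spinal cord cells were not analysed here, and the tissue label was not checked against them. In bulk RNA of this kind, fewer cells of a type and less RNA per cell cannot be told apart.

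Values are normalized reads, that is, the reads of a subfamily after division by the size factor of the sample. The table held 338090 to 2168280 repeat reads per sample, of which 12427 to 67943 were assigned to hAT-Charlie. The 4-month samples fell into 2 sets: replicates 1 to 3 of both genotypes had 1494944 to 2459738 normalized repeat reads, and replicates 4 and 5 had 471178 to 779835, with lower and higher sample numbers in the labels. The 9-month samples had 370990 to 539759. At 9 months the labels' sample numbers also followed genotype in part: PS19 replicates 1 to 5 came before every control, and only replicates 6 and 7 lay among or next to them. The family's level at 4 months is therefore given for each set, 4-month fits are also given with a term for the sets, and age cannot be told apart from any difference in how the ages were prepared, counted or scaled. It was not tested whether the reads stem from RNA of the elements or from element sequence inside other transcripts. Closely similar subfamilies may also have split reads among them. Levels of different subfamilies are not per length or per copy, so they say which rows carry the reads, not which elements are more active.

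At 9 months the family summed to 16653 ± 1465 normalized reads in PS19 mice (SD, n = 7) and 15283 ± 1061 in control mice (SD, n = 6), a log2 ratio of 0.124. The sums overlapped, at 14610 to 19174 in PS19 mice and 14436 to 17322 in control mice. Total repeat signal was also higher in PS19 mice, at 447548 ± 47923 normalized reads, against 403806 ± 31118 in control mice (SD). As a share of repeat signal, hAT-Charlie made up 3.73% ± 0.094 in PS19 mice and 3.79% ± 0.065 in control mice (SD). With TMM scaling within the repeats, which removes differences in total repeat signal, the log2 ratio of the sums became -0.0541.

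At 4 months the sums were 45242, 47061 and 57007 in replicates 1 to 3 and 22055 and 11799 in replicates 4 and 5 of PS19 mice. In control mice they were 47720, 77076 and 58860 in replicates 1 to 3 and 11911 and 16619 in replicates 4 and 5. The sets differed far more than the genotypes: within replicates 1 to 3 the means were 49770 in PS19 mice and 61219 in control mice, and within replicates 4 and 5 they were 16927 in PS19 mice and 14265 in control mice. The share of repeat signal was 2.88% ± 0.23 in PS19 mice and 2.82% ± 0.35 in control mice (SD, n = 5 each). By set, it was 3.03% in PS19 mice and 3.06% in control mice in the first, and 2.67% in PS19 mice and 2.46% in control mice in the second.

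**Figure D1:**
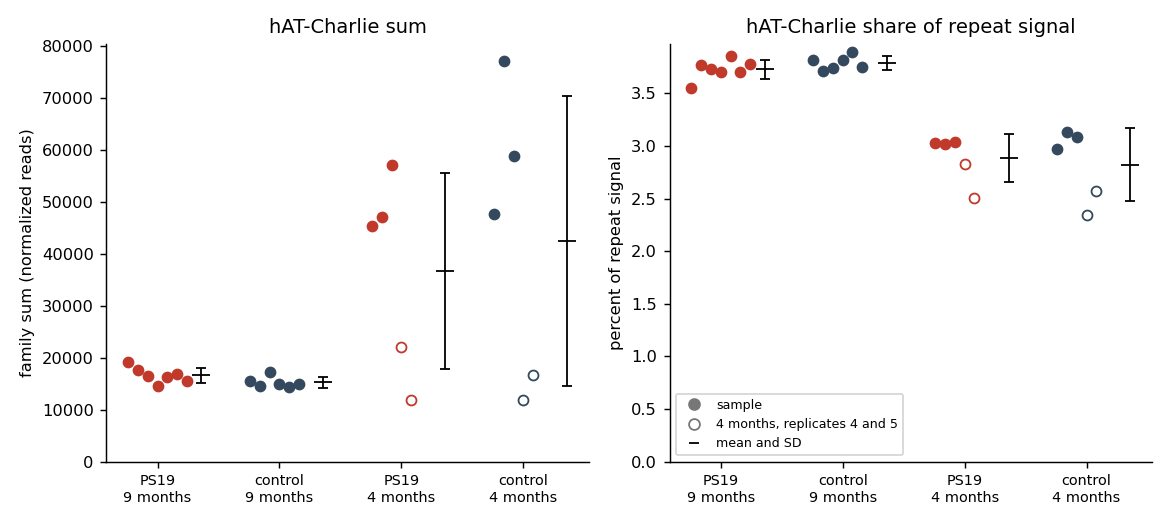
Sum of the 73 hAT-Charlie subfamilies in normalized reads (left) and as a percent of all repeat signal (right), 1 point per sample, with open points for the second set of 4-month samples and mean and SD beside each group. The 9-month samples lie at 3.55% to 3.89% of repeat signal, above every 4-month sample at 2.35% to 3.13%, while the sums of the second 4-month set reach down to the 9-month range.

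The share of hAT-Charlie in the repeat signal separated the ages in both sets: it was 3.55% to 3.89% over the 13 samples at 9 months and 2.35% to 3.13% over the 10 samples at 4 months, with means of 3.05% ± 0.055 in the first set (SD, n = 6) and 2.56% ± 0.20 in the second (SD, n = 4). Other DNA transposon families were set beside it. hAT-Tip100, a related hAT family, made up 0.292% ± 0.016 at 9 months and 0.177% ± 0.011 at 4 months (SD), and TcMar-Tigger, elements of the mariner superfamily, 1.10% ± 0.062 at 9 months and 0.844% ± 0.15 at 4 months (SD). Unclassified hAT rows made up 0.0743% ± 0.0071 at 9 months and 0.0425% ± 0.0097 at 4 months (SD). hAT-Blackjack went the other way, at 0.0595% ± 0.0091 at 9 months and 0.0647% ± 0.013 at 4 months (SD), with 0.0743% in the first 4-month set and 0.0503% in the second.

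The signal was spread over many subfamilies. In the make-up of the family at 9 months, MER names held 48.1% ± 0.88 of the reads in PS19 mice and 48.5% ± 0.82 in control mice (SD). Charlie names held 21.2% ± 0.85 in PS19 mice and 19.7% ± 0.95 in control mice. The 2 URR1 rows held 20.7% ± 1.5 in PS19 mice and 20.4% ± 0.55 in control mice, and the other names 9.99% ± 0.92 in PS19 mice and 11.4% ± 0.87 in control mice. For MER and URR1 names the genotypes differed by less than the SD. For Charlie names the medians were 21.1% in PS19 mice and 20.1% in control mice, and for the other names 9.98% in PS19 mice and 11.1% in control mice, and in both the samples of the genotypes overlapped. The 4 shares add up to the whole, so one cannot change alone.

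URR1 differed most between the ages. It held 18.7% to 23.1% of the family's reads at 9 months, against 29.9% to 32.5% at 4 months, with no overlap. The 4-month sets were alike in this, at 31.6% ± 0.62 in the first (SD, n = 6) and 30.5% ± 0.45 in the second (SD, n = 4). MER names made up 46.6% to 49.5% at 9 months and 41.3% to 45.9% at 4 months, and Charlie names 18.1% to 22.2% at 9 months and 13.2% to 17.4% at 4 months, again without overlap. Charlie8 alone took 5.68% ± 0.76 of the family's reads at 9 months and 0.870% ± 0.11 at 4 months (SD), and RMER30 took 7.75% ± 1.41 at 9 months and 4.27% ± 0.97 at 4 months (SD).

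**Figure D2:**
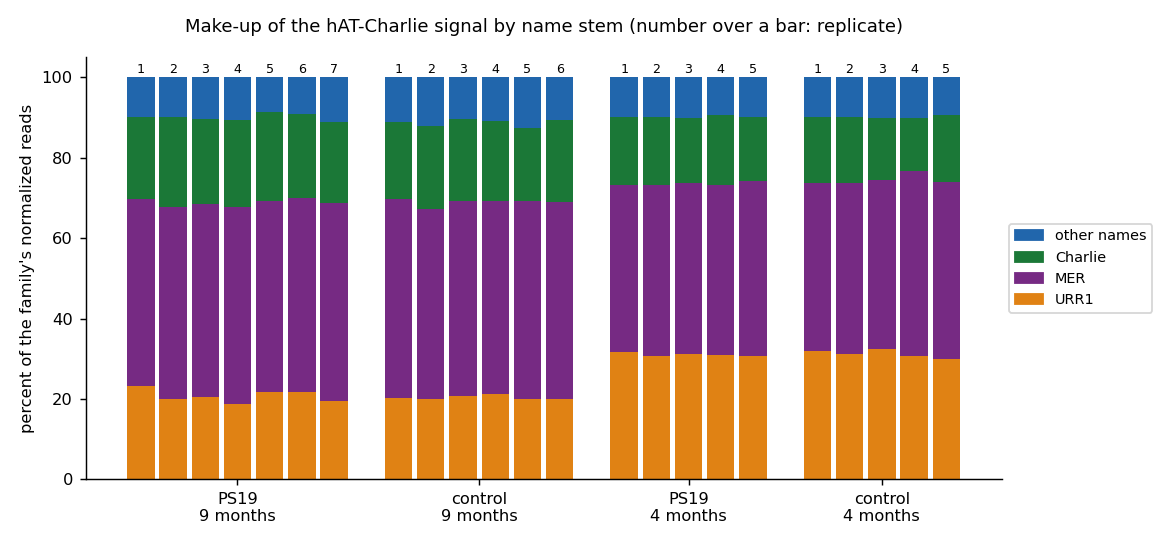
Percent of each sample's hAT-Charlie normalized reads that fell on rows named Charlie, MER, URR1 or otherwise, 1 bar per sample with its replicate number above. URR1 takes 18.7% to 23.1% in the 9-month bars and 29.9% to 32.5% in the 4-month bars of both sets.

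For the comparison of genotypes at 9 months, the question was which subfamilies differ with the tau transgene at the later age. Each subfamily with a mean of at least 10 normalized reads over all samples was tested with limma on log2(value + 1), with p-values adjusted over all 920 tested subfamilies and a threshold of 0.05. Of the 73 hAT-Charlie rows, 64 were tested. Of these, 4 were higher in PS19 mice and 0 were lower, against a background of 3.04% higher and 0.326% lower over all subfamilies. They were Charlie8, Charlie5, MER20B and MER3, 2 rows of each main name stem.

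In normalized reads, Charlie8 separated the genotypes without overlap. Its normalized reads in PS19 mice were 887, 1031, 1048, 1006, 1094, 1071 and 919, and in control mice 786, 839, 781, 815, 741 and 785. Every PS19 value lay above every control value, which held for no other hAT-Charlie row and for 0.978% of all tested subfamilies. No hAT-Charlie row had every PS19 value below every control value, against 0.326% of all. The means were 1008 ± 77.5 in PS19 mice and 791 ± 33.5 in control mice (SD, n = 7 and 6), a log2 fold change of 0.35 with a standard error of 0.089 (limma adjusted p = 0.0331).

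Charlie5, another row of the Charlie names, had a lowest, median and highest value of 303, 430 and 467 in PS19 mice and 222, 276 and 342 in control mice. The groups overlapped, with 2 PS19 values under the highest control value. Its means were 395 ± 63.2 in PS19 mice and 279 ± 42.1 in control mice (SD), a log2 fold change of 0.50 with a standard error of 0.13 (limma adjusted p = 0.0344).

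MER20B, a short element with few reads, had 56.1, 77.1 and 135 as lowest, median and highest value in PS19 mice and 34.0, 46.4 and 61.6 in control mice. The highest PS19 value, in replicate 1, stood apart from the others at 56.1 to 85.6. The means were 82.5 ± 25.4 in PS19 mice and 48.2 ± 9.48 in control mice (SD), the largest log2 fold change of the 4 at 0.74 with a standard error of 0.20 (limma adjusted p = 0.0442). Without PS19 replicate 1 the log2 fold change was 0.613 (limma adjusted p = 0.108).

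MER3, among the rows with more reads, had 606, 749 and 856 in PS19 mice and 491, 589 and 644 in control mice, as lowest, median and highest value. A single PS19 value, 606, lay within the control range. Its means were 742 ± 82.2 in PS19 mice and 574 ± 56.0 in control mice (SD), a log2 fold change of 0.37 with a standard error of 0.10 (limma adjusted p = 0.0469).

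**Figure D3:**
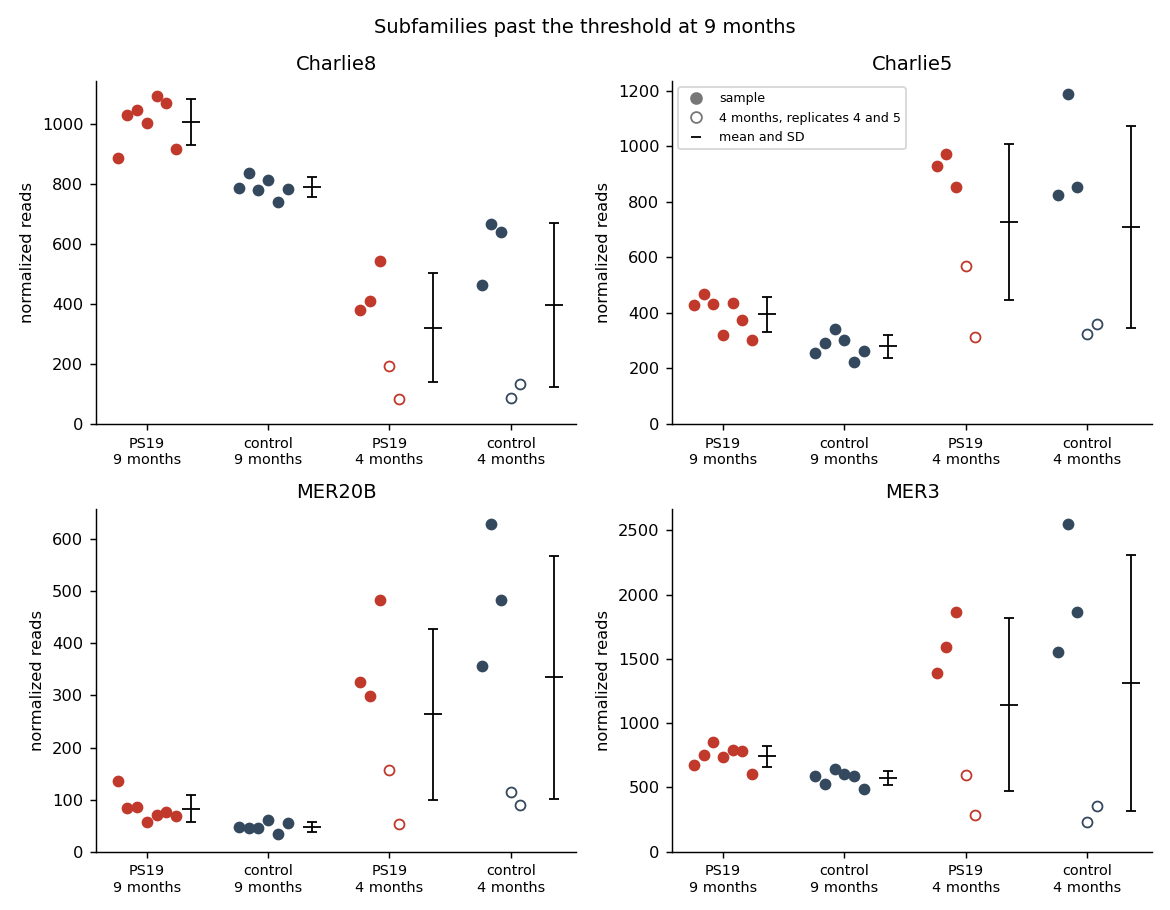
Normalized reads of the 4 hAT-Charlie subfamilies past the threshold at 9 months, 1 point per sample in each of the 4 groups, with open points for the second 4-month set and mean and SD beside each group. Charlie8 is the row in which all 7 PS19 samples at 9 months, at 887 to 1094, lie above all 6 control samples, at 741 to 839, and all 9-month samples lie above all 4-month samples.

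These calls ended with scaling within the repeats and in most of the fits with 1 sample left out. With TMM scaling within the repeats 0 of 64 rows passed, against 0.87% higher and 0.761% lower over all subfamilies. An unadjusted p under 0.05 came in 9 hAT-Charlie rows and in 165 of all 920. Quantile scaling also gave 0 of 64, against 10 higher and 10 lower of all 920. With TMM scaling the log2 fold changes were 0.17 for Charlie8, 0.32 for Charlie5, 0.56 for MER20B and 0.19 for MER3 (limma adjusted p = 0.452, 0.0815, 0.0648 and 0.401 in that order). With all 23 samples sharing one estimate of the spread, 0 of 64 passed, against 0.109% of all subfamilies. In that fit 0 of 64 rows and 28 of all 920 had an unadjusted p under 0.05. All 4 calls ended when any of PS19 replicates 2, 3, 5 and 6 or control replicates 1, 2, 4, 5 and 6 was left out, while over all 13 fits with 1 sample left out the log2 fold changes of the 4 rows ran between 0.323 and 0.823. Without PS19 replicate 1 the calls of MER20B and Charlie5 ended. Without PS19 replicate 4, PS19 replicate 7 or control replicate 3 they all held. Over all 920 subfamilies, 7 to 72 were higher in the 13 fits. Of the samples with neighbouring numbers, PS19 replicates 6 and 7 against the 6 controls gave 0 calls and a family median of 0.13. Over all 920 subfamilies this fit gave 6 calls and a median of 0.12. An unadjusted p under 0.05 came in 2 hAT-Charlie rows and in 74 of all 920. The log2 fold changes were then 0.33 for Charlie8, 0.28 for Charlie5, 0.61 for MER20B and 0.27 for MER3, with limma adjusted p-values of 0.529 to 0.713.

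Across the 64 tested rows, 54 (84.4%) had a positive log2 fold change in PS19 mice, against 690 of 920 (75%) of all subfamilies, and the medians were 0.21 for hAT-Charlie and 0.19 for all. Without PS19 replicate 1 the medians were 0.13 for hAT-Charlie and 0.12 for all. With TMM scaling 38 (59.4%) of the family and 482 (52.4%) of all were positive, with medians of 0.06 and 0.01. The small upward shift at 9 months was therefore of about the size seen in repeats as a whole. The medians were 0.26 for the 34 Charlie names, 0.19 for the 24 MER names and 0.14 for the 2 URR1 rows. Among the comparison families, 1 of 23 hAT-Tip100 rows and 0 of 38 TcMar-Tigger rows were higher past the threshold, with medians of 0.17 and 0.08, and the 7 hAT-Blackjack and 5 unclassified hAT rows had medians of 0.15 and 0.22 with 0 calls.

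Some rows with log2 fold changes well above the family median missed the threshold and are given with their numbers. RCHARR1, among the other names, averaged 409 ± 80.1 normalized reads in PS19 mice and 301 ± 61.8 in control mice (SD), a log2 fold change of 0.44 (limma adjusted p = 0.085). Charlie15a averaged 60.8 ± 18.2 in PS19 mice and 41.3 ± 7.13 in control mice (limma adjusted p = 0.21). MER102a averaged 39.4 ± 12.8 in PS19 mice and 26.9 ± 5.39 in control mice (limma adjusted p = 0.28).

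The 2 URR1 rows, which carried the most reads of the family, were close between genotypes. URR1A averaged 1760 ± 270 in PS19 mice and 1585 ± 142 in control mice (SD), a log2 fold change of 0.14 with a standard error of 0.10. URR1B averaged 1708 ± 268 in PS19 mice and 1531 ± 139 in control mice, a log2 fold change of 0.15 with a standard error of 0.10. Both groups overlapped in both rows. The same was true of the MER rows with the most reads: MER5A had a log2 fold change of 0.13, MER20 of 0.03 and MER5B of 0.07, with standard errors of 0.093, 0.098 and 0.087. The estimates for URR1 and MER5A turn slightly negative, to -0.04 (URR1A), -0.03 (URR1B) and -0.04 (MER5A), with TMM scaling.

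The lowest log2 fold changes among rows with a mean of at least 50 belonged to MER117, RMER30, Charlie7 and MER112. MER117 ran at 433, 533 and 640 in PS19 mice and 532, 631 and 860 in control mice (lowest, median and highest), a log2 fold change of -0.25 (limma adjusted p = 0.278). RMER30 ran at 877, 1196 and 1260 in PS19 mice and 1154, 1325 and 1516 in control mice, a log2 fold change of -0.22 (limma adjusted p = 0.252). Charlie7 stood at -0.19 and MER112 at -0.08. None of the 4 passed, and the groups overlapped in each.

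**Figure D4:**
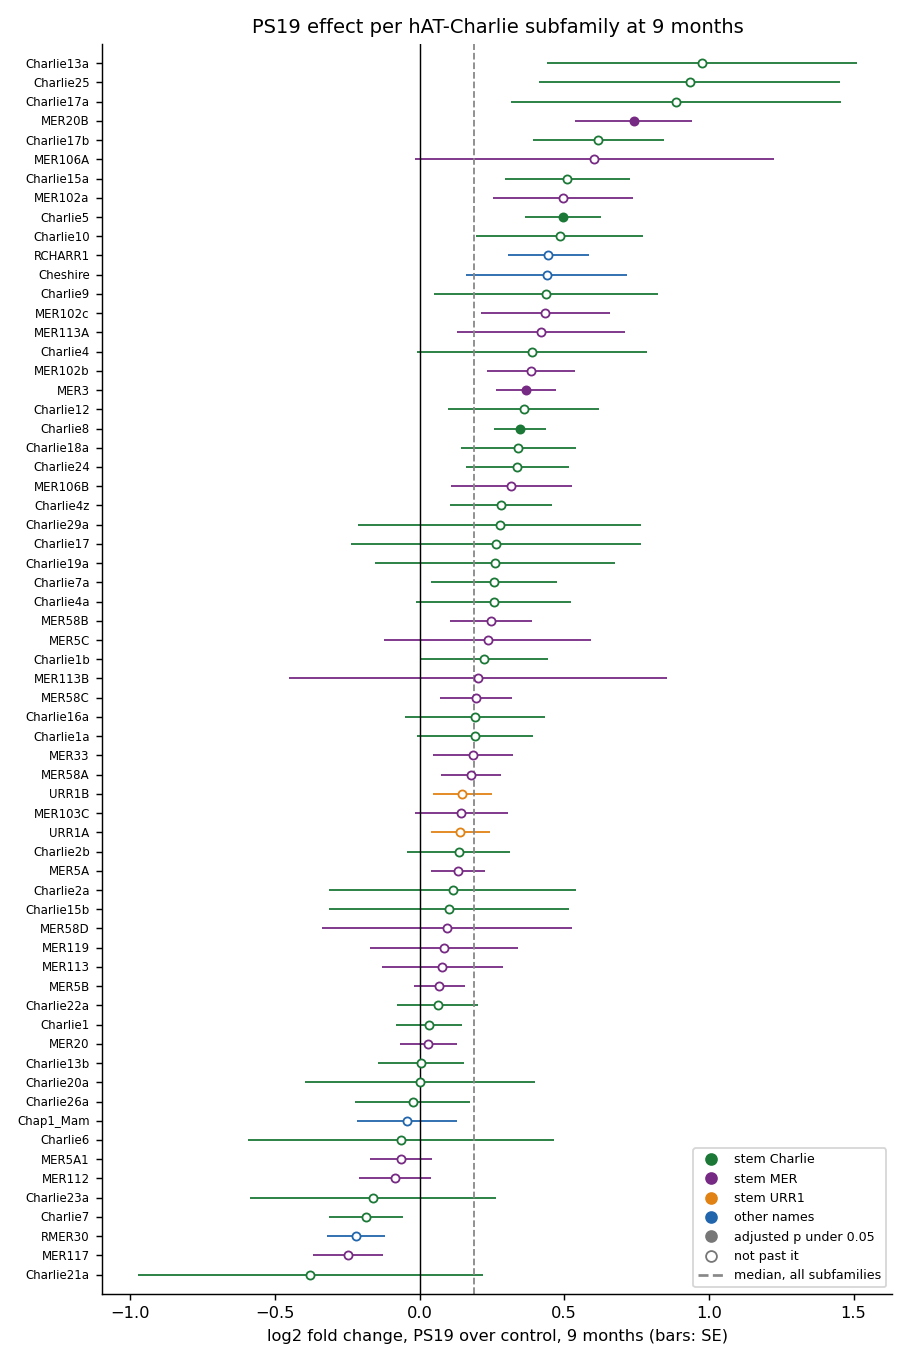
Log2 fold change of PS19 over control at 9 months for the 64 tested hAT-Charlie subfamilies, ordered by size, with bars of 1 standard error, coloured by name stem and filled where past the threshold. The 4 filled points are MER20B (0.74), Charlie5 (0.50), MER3 (0.37) and Charlie8 (0.35); the dashed line is the median of all 920 tested subfamilies, 0.19, and 54 of 64 points lie above 0.

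At 4 months the question was the same at the earlier age. Here 0 of 64 rows passed the threshold, as did 0% of all 920 subfamilies, and 0 rows had an unadjusted p under 0.05 with limma, edgeR or DESeq2. With a term for the 2 sets of samples, 0 rows again passed (0% of all subfamilies) and 0 had an unadjusted p under 0.05. The median log2 fold change was -0.03 for the family and -0.08 for all subfamilies, and 29 of 64 rows were positive, against 340 of all 920. This balance of directions was not stable, in the family or in repeats as a whole. edgeR and DESeq2 each gave 7 positive rows, against 95 of all 920. Leaving out 1 sample gave between 1 (median -0.46, without control replicate 4) and 62 (median 0.42, without PS19 replicate 5). In those 2 fits 29 and 822 of all 920 were positive, with medians of -0.45 and 0.26. A standard error of 0.70 for Charlie8 at 4 months, against 0.089 at 9 months, shows how much wider the 4-month samples spread. With the term for the sets it was 0.26.

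The rows past the threshold at 9 months gave the following at 4 months. Charlie8 had 379, 410 and 544 normalized reads in PS19 replicates 1 to 3 and a mean of 138 in replicates 4 and 5, against 463, 667 and 640 in control replicates 1 to 3 and a mean of 111 in replicates 4 and 5. The log2 fold change was -0.16. Charlie5 had a log2 fold change of 0.10 with a standard error of 0.53, MER20B of -0.29 with 0.71, and MER3 of 0.03 with 0.73. With the term for the sets the estimates stayed as they were and the standard errors were 0.22 for Charlie5, 0.28 for MER20B and 0.25 for MER3. The largest positive estimates among rows with a mean of at least 50 were 0.79 for Chap1_Mam, 0.45 for Charlie2a, 0.29 for Charlie1b and 0.28 for MER113, and the most negative were -0.44 for MER119, -0.29 for MER20B, -0.18 for Charlie18a and -0.17 for MER5A. All 8 lay within 1 standard error of 0. With the term for the sets the standard errors were smaller, at 0.46 for Chap1_Mam and 0.27 for MER119, and none of the 8 passed. Chap1_Mam had only 1 and 2 reads in control replicates 4 and 5, and 15 in each of PS19 replicates 4 and 5. In replicates 1 to 3 it had 36.3, 52.0 and 62.3 normalized reads in PS19 mice and 63.0, 74.9 and 59.9 in control mice.

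The test of whether the PS19 effect differed between the ages found 0 of 64 rows, as it found 0% of all subfamilies, with 0 hAT-Charlie rows at an unadjusted p under 0.05 by limma, edgeR or DESeq2 when the sets were not modelled. The difference of the log2 fold changes at 9 minus 4 months was 0.50 with a standard error of 0.63 for Charlie8, 0.40 with 0.48 for Charlie5, 1.03 with 0.68 for MER20B and 0.33 with 0.68 for MER3. With the term for the 4-month sets the estimates were the same, with standard errors of 0.25 for Charlie8, 0.24 for Charlie5, 0.35 for MER20B and 0.26 for MER3 (limma adjusted p = 0.592, 0.662, 0.414 and 0.708 in that order). In that fit 0 hAT-Charlie rows and 0.217% of all subfamilies passed. An unadjusted p under 0.05 came in 4 hAT-Charlie rows and in 76 of all 920. The 9-month calls are therefore not shown to be particular to that age.

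The comparison of ages asked how the family differs between 9 and 4 months within a genotype. With the authors' scaling most rows were lower at 9 months. In PS19 mice 6 rows were higher and 39 lower, against 6.09% higher and 77% lower of all subfamilies. In control mice 8 were higher and 42 lower, against 6.09% higher and 79.3% lower of all. The median log2 fold change was -1.39 in PS19 mice and -1.5 in control mice for the family, against -1.83 and -2.14 for all subfamilies.

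These counts moved with the samples and the scaling. Set against replicates 4 and 5 at 4 months alone, PS19 mice had 18 rows higher and 17 lower (14% and 50.2% of all), and control mice 21 higher and 17 lower (16.3% and 50.2% of all). The family medians were then -0.23 in PS19 mice and -0.07 in control mice, against -0.95 and -0.96 for all subfamilies. With TMM scaling PS19 mice had 34 higher and 12 lower (31% and 31% of all), and control mice 32 higher and 13 lower (31.2% and 33.8% of all). The family medians were then 0.33 in PS19 mice and 0.41 in control mice, against medians of all subfamilies of -0.13 and -0.19. In each of these fits the family median lay above that of all subfamilies.

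Charlie8 was higher at 9 months under each of these settings. It averaged 908 ± 127 normalized reads at 9 months (SD, n = 13), against 517 ± 120 in the first 4-month set (SD, n = 6) and 124 ± 51.3 in the second (SD, n = 4). It was the single hAT-Charlie row whose values at 9 months all exceeded those at 4 months, which held for 3.26% of all subfamilies. The log2 fold change was 1.91 with a standard error of 0.44 in PS19 mice (limma adjusted p = 0.000298) and 1.41 with 0.45 in control mice (limma adjusted p = 0.00533). Against the second set alone it was 2.98 in PS19 mice and 2.86 in control mice.

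Several other rows went against the family median. In both genotypes Charlie26a, Charlie13b, MER117, MER112 and Charlie7 passed the threshold with Charlie8 in the main limma fit. The number of higher rows moved between fits. In control mice edgeR and DESeq2 each gave 3 (41 and 45 of all 920 subfamilies). In PS19 mice they each gave 4 (48 and 49 of all). With 1 sample left out, limma gave 4 to 8 in control mice (43 to 68 of all). In PS19 mice it gave 3 to 9 (44 to 66 of all). MER117 averaged 596 ± 108 at 9 months, against 357 ± 125 in the first 4-month set and 63.2 ± 23.7 in the second (SD). Its log2 fold change was 1.67 in PS19 mice (limma adjusted p = 0.00325) and 1.90 in control mice (limma adjusted p = 0.00131). Charlie13b averaged 138 ± 20.3 at 9 months, against 74.4 ± 16.5 in the first set and 15.0 ± 7.91 in the second (SD). Charlie26a, with few reads, averaged 55.5 ± 10.3 at 9 months, against 36.8 ± 10.8 in the first set and 5.12 ± 9.47 in the second (SD).

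Chap1_Mam and Charlie22a passed in control mice alone, with log2 fold changes of 1.92 and 1.09 there (limma adjusted p = 0.011 and 0.0427), and stood at 1.09 and 0.95 in PS19 mice (limma adjusted p = 0.126 and 0.0671). In control mice both were higher than the second 4-month set but level with the first. Chap1_Mam had 58.8 to 78.6 normalized reads in controls at 9 months. At 4 months controls had 63.0, 74.9 and 59.9 in replicates 1 to 3, and 0.96 and 2.36 in replicates 4 and 5. Charlie22a averaged 168 in controls at 9 months, against 174 in the first set and 23.3 in the second. The genotypes' age changes were not shown to differ. MER106B and Charlie7a had positive values in both genotypes and passed in neither. Against the second 4-month set alone, 13 hAT-Charlie rows had every 9-month value above every 4-month value, as did 10.9% of all subfamilies. Charlie8, MER117, MER112, Charlie7, Charlie7a, MER106B, Charlie22a, Charlie13b, Charlie26a and Chap1_Mam were among them.

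The rows with the most reads went lower. URR1A averaged 1679 ± 230 normalized reads at 9 months, against 8912 ± 1863 in the first 4-month set and 2223 ± 792 in the second (SD). Its log2 fold change of -1.48 in PS19 mice and -1.69 in control mice (limma adjusted p = 0.00242 and 0.000906) turned to 0.253 and 0.301 with TMM scaling. URR1B, at 1627 ± 229 at 9 months, against 8605 ± 1920 and 2543 ± 726 in the 4-month sets, gave -1.55 in PS19 mice and -1.82 in control mice (limma adjusted p = 0.000687 and 0.000159), and turned to 0.182 and 0.169 with TMM scaling. MER5A gave -1.40 in PS19 mice and -1.71 in control mice, and turned to 0.327 and 0.277 with TMM scaling.

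MER20 and MER5B were level with the second 4-month set. MER20 averaged 1078 ± 110 at 9 months and 972 ± 273 in the second set (SD), and MER5B 1011 ± 67.3 at 9 months and 1022 ± 204 in the second set, against 3753 ± 916 and 2651 ± 564 in the first set. Their negative log2 fold changes over all 4-month samples, -0.89 and -0.73 in PS19 mice and -1.09 and -0.92 in control mice, turned positive with TMM scaling. RMER30 averaged 1228 ± 162 at 9 months, between the sets at 2003 ± 401 and 793 ± 139 (SD), and did not pass in either genotype over all samples.

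Some rows stayed lower at 9 months against both sets. Charlie1a averaged 149 ± 48.9 at 9 months, against 1711 ± 367 in the first set and 386 ± 226 in the second (SD), with log2 fold changes of -2.61 in PS19 mice and -2.64 in control mice. RCHARR1 averaged 359 ± 89.2 at 9 months, against 2949 ± 682 in the first set (SD) and a mean of 609 in the second, in which the values ran between 382 and 954. In 4 rows, against 27.1% of all subfamilies, every 9-month value lay below every 4-month value. They were MER102b, Charlie4z, Cheshire and MER58D, of which all but Cheshire are named because of these values. Cheshire averaged 37.4 ± 13.7 at 9 months, against 489 ± 99.8 and 100 ± 33.0 in the sets (SD).

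By mean level, 9 of the 64 rows at 9 months lay above both 4-month sets, 16 between them and 39 below both. Over all 920 subfamilies 7.17% lay above both, 16.5% between and 76.3% below both. Of the 9 rows above both sets, 6 were Charlie names, 2 MER names and 1 had another name, and both URR1 rows lay below both.

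**Figure D5:**
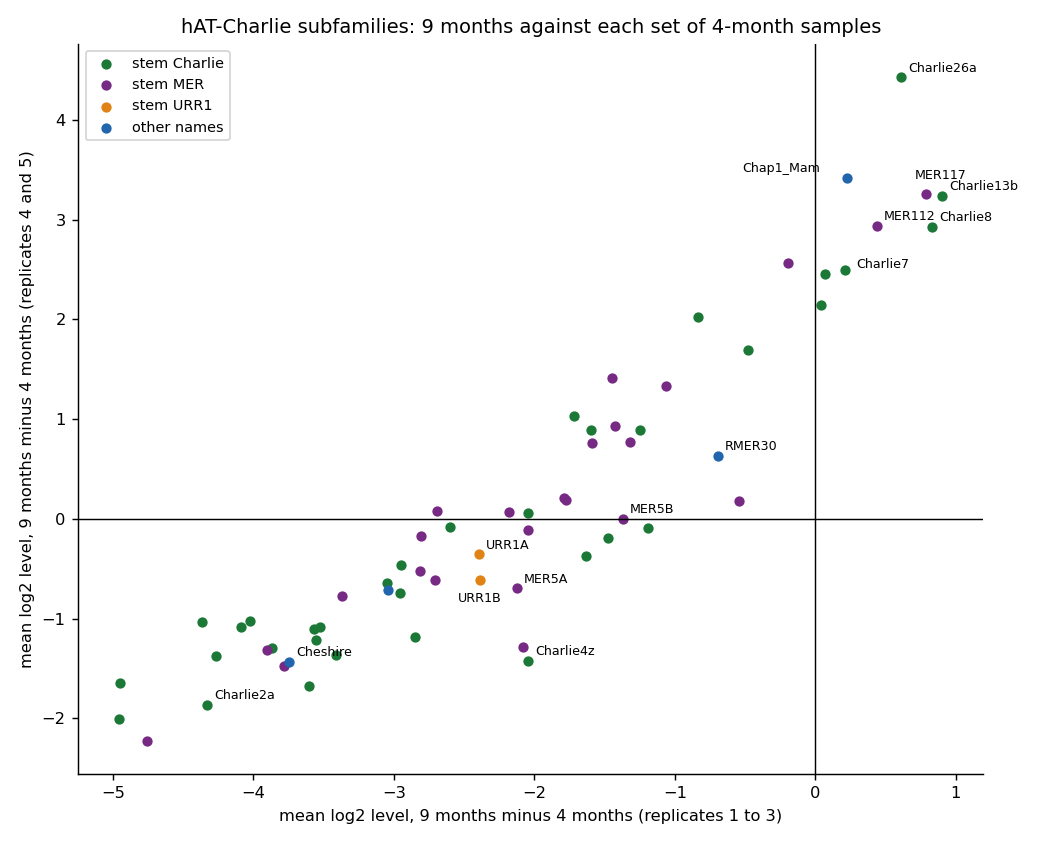
Mean log2 level at 9 months minus that in the first set of 4-month samples (x axis) and minus that in the second set (y axis) for the 64 tested hAT-Charlie subfamilies, coloured by name stem. Charlie8, MER117 and 7 others lie above both sets, in the upper right; both URR1 rows lie below both, in the lower left; the 2 axes share the 9-month samples, so the slope of the cloud is not a result.

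The 4-month sets differed in every tested hAT-Charlie row, with the first set higher. The log2 difference of the first over the second set had a median of 2.34 in the family, between 0.63 in Charlie4z and 3.82 in Charlie26a, against a median of 1.93 over all subfamilies. Within 9 months the rows varied less than repeats in general: over the 41 rows with a mean of at least 50 the median coefficient of variation between samples was 16.9% in PS19 mice and 16.6% in control mice, against 22.7% in PS19 mice and 20.1% in control mice over 648 subfamilies.

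The 9 rows under the filter were Charlie11, Charlie14a, Charlie10a, Charlie10b, Charlie1b_Mars, MER5C1, Cheshire_Mars_, Cheshire_Mars and nhAT5a_ML. Charlie11 had 1.10 to 26.5 normalized reads in PS19 mice and 3.79 to 13.6 in control mice at 9 months. Charlie14a had 0 to 2.28 in PS19 mice and 0 to 2.01 in control mice at 9 months, and up to 40.4 in PS19 mice and 53.3 in control mice at 4 months. Charlie1b_Mars, Cheshire_Mars_ and nhAT5a_ML were at 0 in every 9-month sample, and had at most 6.42 normalized reads in any 4-month sample.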

How the data were processed

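The authors deposited a signal per repeat subfamily, reads scaled by a size factor per sample, for 23 spinal cord samples. Trimmomatic, STAR, DESeq2 and mm10 appear, without versions, in the submitters' processing notes. The program that counted repeats, its annotation and its treatment of reads with many matches are not stated in those sources. Values were whole multiples of a read in 100% of cases, within 0.1% of a read, which gave the reads for count tests, and 0 columns were left unused.

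Groups came from the labelled mouse model and age, and the titles matched the table's columns to samples. Replicates were numbered in accession order, and no sample was paired. Samples of a group differed beyond sampling noise (lowest chi-square per degree of freedom 3.75 over 56 pairs). Nothing in the labels says that samples are separate animals, so p-values measure the spread between these samples. Shares and sums carry counting error as well as that spread.

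Tests used limma 3.58.1 (R 4.3.3, trended empirical Bayes) on log2(value + 1) of 920 subfamilies with a mean of at least 10, removing 215, with Benjamini-Hochberg adjustment at 0.05. Fold changes on this scale understate those of low rows. Genotypes were compared on samples of 1 age, and ages and the interaction on all 23. Alternatives were pseudocounts of 0.5 and 5, no filter, a filter at 50, TMM and quantile scaling, edgeR 4.0.16 and DESeq2 1.42.0 on the reads, other sample sets and leaving out each sample. Scripts were tested on simulated data. The members, the families set beside them, the sets of 4-month samples and the alternatives were chosen with earlier results of these data known. Named rows are those past the threshold between genotypes, the 3 highest of each stem, the 4 largest and 4 smallest fold changes at each age with a mean of at least 50, up to 10 rows whose age change went against the family median (of 11), and the untested rows.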

Additional observations from a re-analysis of the deposited data

Results flagged for a closer look

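In 7 of 140 groups of 4 to 10 samples, 1 sample stood far from the rest by Dixon's test at the 95% level, which chance flags in about 1 of 20 groups. The hAT-Charlie sum of control replicate 3 at 9 months was 17300 normalized reads, against 14400 to 15500 in the other controls. PS19 replicate 1 at 9 months stood high in 4 rows. It had 135 in MER20B (others 56.1 to 85.6), 575 in RCHARR1 (others 322 to 422), 66.8 in Cheshire (others 31.4 to 45.0) and 34.8 in Charlie2a (others 6.22 to 11.0). PS19 replicate 2 at 9 months had 462 in Charlie7 (others 297 to 334). Control replicate 4 at 9 months had 36 in Charlie26a (others 55.4 to 62.9).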

How the results depend on the processing

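The 4 calls at 9 months fell to 0 with TMM scaling, quantile scaling, all 23 samples in the fit and PS19 replicates 6 and 7 alone against the controls, and ranged from 0 to 5 when 1 sample was left out. edgeR called 3 and DESeq2 4. Over all 920 subfamilies, 28 were higher in the main fit and 7 to 72 with 1 sample left out. There were 8 higher with TMM scaling, 10 with quantile scaling and 1 with all 23 samples. PS19 replicates 6 and 7 against the controls gave 6, edgeR 21 and DESeq2 41. The cause of the lost calls was not tested. Fewer samples enter some of the fits. The log2 ratio of the sums at 9 months was -0.0541 with TMM scaling, against 0.124. The calls at 4 months and of the interaction were 0 in every fit run. With a filter at a mean of 50, 41 rows were tested and the age calls fell to 27 in PS19 mice and 31 in control mice. Of all 648 subfamilies tested there, 41 were higher and 495 lower in PS19 mice, and 43 higher and 511 lower in control mice. Leaving out 1 sample gave 38 to 50 age calls in PS19 mice and 43 to 52 in control mice. Over all 920 subfamilies, these fits gave 44 to 66 higher and 647 to 746 lower in PS19 mice. In control mice they gave 43 to 68 higher and 683 to 776 lower. Leaving out 1 sample gave 0 calls at 4 months and in the interaction. The log2 ratios of the sums were then 0.087 to 0.163 at 9 months and -0.451 to 0.117 at 4 months. The differences in share were -0.0809 to -0.0306 percentage points at 9 months and -0.056 to 0.158 at 4 months.

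Age changes of named rows that were past the threshold as negative values turned positive in these cases. Not all passed it as positive values. Those against the second 4-month set alone did not pass. Nor did those of MER20B, MER102a, MER113, MER119 and Charlie1b, some of which were close to 0 (limma adjusted p = 0.114 to 0.98). In PS19 mice TMM scaling gave 0.944 for Charlie5, 0.339 for MER20B, 0.113 for MER102a, 0.0297 for MER113, 0.0649 for MER119, 0.327 for MER5A, 0.839 for MER20, 1 for MER5B, 0.253 for URR1A and 0.182 for URR1B. Quantile scaling gave 0.582 for Charlie5, 0.324 for MER20 and 0.513 for MER5B, and the second 4-month set alone gave 0.178 for MER20. In control mice TMM scaling gave 0.805 for Charlie5, 0.997 for Charlie15a, 0.0462 for Charlie1b, 0.0071 for MER102a, 0.484 for MER113, 0.277 for MER5A, 0.898 for MER20, 1.07 for MER5B, 0.301 for URR1A and 0.169 for URR1B. Quantile scaling gave 0.469 for Charlie5, 0.725 for Charlie15a, 0.0394 for MER113, 0.315 for MER20 and 0.477 for MER5B, and the second set alone gave 0.0682 for Charlie15a, 0.542 for MER113, 0.191 for MER20 and 0.0168 for MER5B. TMM scaling moved the median of all subfamilies between ages to -0.13 in PS19 mice and -0.19 in control mice, against -1.83 and -2.14. Of the 1348 values for named rows under other settings, these 33 reversed, 1137 kept their direction and their side of the threshold, 55 lost significance, 22 gained it, and of those that had not passed 23 changed sign at 9 months, 33 at 4 months, 23 in the interaction and 11 in each age comparison. Of 2668 values with 1 sample left out, 0 that had passed changed sign, 2359 kept direction and side, 105 lost significance, 13 gained it, and of those that had not passed 20 changed sign at 9 months, 102 at 4 months, 66 in the interaction and 3 between ages. No paired analysis was possible because the labels give no replicate numbers or litters. Depth limits rows with few reads, such as Charlie26a, in which 1 read moves the second 4-month set.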
